A study of Homo sapiens with 12 samples.

Results

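The PAX5 sites described here are those on chromosomes 8, 9 and 17, the sites of a human B-cell transcription factor mapped by chromatin immunoprecipitation and sequencing in 3 lymphoma cell lines. Every deposited peak on these chromosomes was taken, and peaks of different libraries that overlapped or touched were merged, which gave 2054 regions of 14465 in the whole genome. Raji and Namalwa, both established from Burkitt lymphoma, which arises from germinal-centre B cells, received no treatment and are called the B-cell lines. L428-PAX5 derives from the classical Hodgkin lymphoma line L428, was treated with Mifepristone, and was fixed 48 h after overproduction of PAX5 had been induced. For every line, 2 PAX5 libraries came with a peak list of their own, so 4 libraries of B-cell lines stand against 2 of L428-PAX5. Nothing in the labels tells whether a line's pair of libraries stems from different cultures or whether L428-PAX5 is a single clone, and the spread between libraries may be technical. The chromosomes were chosen by their share of peaks, which was higher in both L428-PAX5 lists than in all 4 lists of the B-cell lines. That difference is therefore given as a description, with no test, and the question is where along the chromosomes it lies.

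PAX5 binds DNA through a paired domain, switches on genes of the B-cell programme and represses genes of other lineages. Tumour cells of classical Hodgkin lymphoma are of B-cell origin, yet little of that programme remains active in them, although they often keep some PAX5. The PAX5 gene itself lies on the short arm of chromosome 9. A peak list records places where precipitated fragments pile up beyond the threshold of a peak caller. Input and DNA copy number were not analysed here, so the copy number of a chromosome segment in a line and the binding of PAX5 to it cannot be told apart in these lists.

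The 3 chromosomes held a larger part of the L428-PAX5 lists than of the others. They carried 296 of 2619 peaks in Raji 1 (11.3%, exact 95% interval 10.1 to 12.6%), 608 of 4960 in Raji 2 (12.3%, 11.4 to 13.2%), 730 of 6241 in Namalwa 1 (11.7%, 10.9 to 12.5%) and 241 of 2107 in Namalwa 2 (11.4%, 10.1 to 12.9%). In L428-PAX5 they carried 1051 of 6201 peaks in library 1 (16.9%, 16.02 to 17.9%) and 621 of 3252 in library 2 (19.1%, 17.8 to 20.5%). The mean share was thus 18.0 ± 1.5% (SD, n = 2) in L428-PAX5 against 11.7 ± 0.4% (SD, n = 4) over Raji and Namalwa, with no overlap between the groups. The intervals cover counting error over peaks only.

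Chromosome 8 held 4.31 and 4.42% of the Raji lists, 4.36 and 4.56% of the Namalwa lists, and 6.22 and 7.13% of the L428-PAX5 lists. The 4 lists of the B-cell lines lay close together there, and the difference of the means, called the excess, was 2.27 percentage points (1.51-fold). Chromosome 9 held 4.84 and 5.38% in L428-PAX5, against 2.83 and 3.00% in Raji and 4.07 and 3.32% in Namalwa, an excess of 1.8 points (1.55-fold). Chromosome 17 held 5.89 and 6.58% in L428-PAX5, against 4.16 and 4.84% in Raji and 3.27 and 3.56% in Namalwa, an excess of 2.28 points (1.58-fold). On chromosomes 9 and 17 the B-cell lines differed from each other, with Namalwa above Raji on the former and below it on the latter.

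The property by which the 3 chromosomes were chosen was not theirs alone. Both L428-PAX5 shares exceeded all 4 of the B-cell lines on 6 of 24 chromosomes (25%), namely 8, 2, 17, 9, 12 and 6. The gap between the lowest L428-PAX5 share and the highest share of a B-cell line was 1.67 points on chromosome 8, 1.05 on chromosome 17 and 0.768 on chromosome 9. It was 1.55 points on chromosome 2, 0.591 on chromosome 12 and 0.0622 on chromosome 6, the last one inside the threshold, while chromosome Y was the first outside it at -0.0297. By the fold between the means, chromosomes 2, 12 and 6 came to 1.22, 1.27 and 1.31. The reverse, both L428-PAX5 shares below all 4 of the B-cell lines, held for 7 chromosomes (29.2%).

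**Figure D1:**
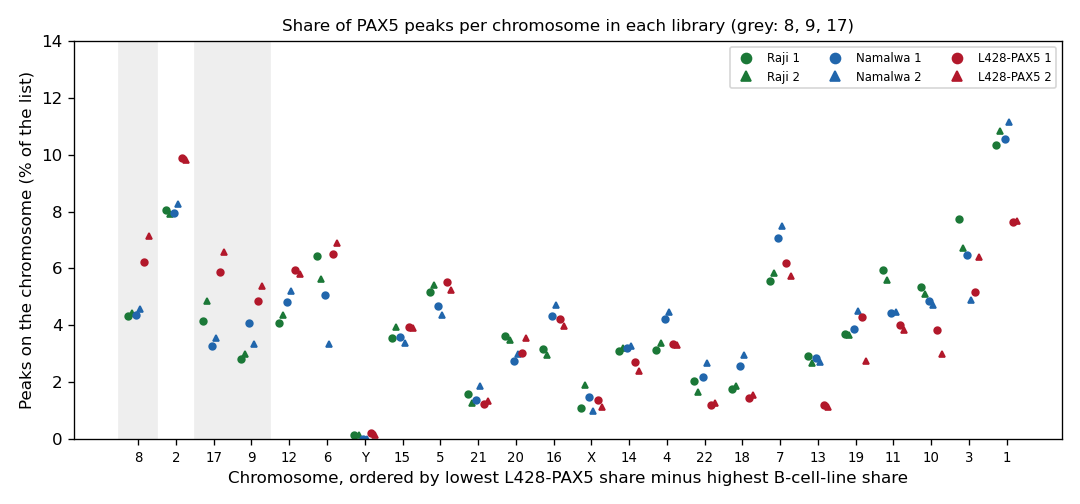
Share of each peak list that lies on each chromosome (y axis, percent of the list), for 24 chromosomes ordered by the lowest L428-PAX5 share minus the highest B-cell-line share (x axis), with 1 point per library, circles for replicate 1, triangles for replicate 2, and chromosomes 8, 9 and 17 shaded. On chromosome 8 the 4 points of the B-cell lines sit between 4.31 and 4.56% and the L428-PAX5 points at 6.22 and 7.13%.

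Split by arm, the excess of chromosome 8 lay on the long arm. The short arm held 0.955 and 0.907% of the Raji lists, 1.43 and 1.76% of the Namalwa lists and 1.11 and 1.48% of the L428-PAX5 lists, so both L428-PAX5 lists fell within the range of the B-cell lines there. Its excess of 0.0334 points was far below the SD of 0.405 points over the B-cell-line libraries, and its sign turned under several other settings. The long arm held 3.36, 3.51, 2.93 and 2.80% in Raji 1, Raji 2, Namalwa 1 and Namalwa 2, against 5.11 and 5.66% in L428-PAX5. That is 1.71-fold, and 98.5% of the excess of the chromosome.

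On chromosomes 9 and 17 both arms held more of the L428-PAX5 lists. The short arm of chromosome 9 carried 1.64 and 1.94% in L428-PAX5, against 0.955 and 1.13% in Raji and 1.14 and 0.854% in Namalwa (1.76-fold), and the long arm 3.19 and 3.44%, against 1.87 and 1.88% and 2.93 and 2.47% in the same order (1.45-fold). The short arm thus made up 42.8% of the excess of chromosome 9. The short arm of chromosome 17 had the highest fold of the 6 arms. It carried 1.52 and 1.72% in L428-PAX5, against 0.725 and 0.746% in Raji and 0.369 and 0.285% in Namalwa, which is 3.05-fold between the means and 47.8% of the excess of the chromosome. The long arm of chromosome 17 carried 4.37 and 4.86% in L428-PAX5, against 3.44 and 4.09% in Raji and 2.90 and 3.27% in Namalwa (1.35-fold). On 5 of the 6 arms, all but the short arm of chromosome 8, the L428-PAX5 libraries did not overlap with the others. The arms of other chromosomes were not counted. The count uses the contrast that chose the chromosomes, so nothing is read from it.

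To see whether the excess was spread or focal, peaks were counted in fixed bins of 5 Mb. A bin is called above when both L428-PAX5 shares exceed all 4 shares of the B-cell lines, and below in the opposite case. Over the genome 23.7% of 599 bins were above and 20.5% below. On chromosomes 8, 9 and 17 the numbers were 29 of 72 above (40.3%) and 6 below (8.33%). These counts use the contrast that chose the chromosomes, so nothing is read from their distance to the genome.

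On chromosome 8, 13 of 30 bins were above and 5 below. A stretch of 5 neighbouring bins, from 120 to 145 Mb on hg19, was above in each bin and made up 69.7% of the net excess of the chromosome. It held 29 peaks in Raji 1, 49 in Raji 2, 68 in Namalwa 1 and 22 in Namalwa 2, which is 0.988 to 1.11% of each list. In L428-PAX5 it held 150 peaks (2.42%) and 93 peaks (2.86%), so its mean share was 2.5-fold higher. The bin with the largest excess within it was 140 to 145 Mb, with 3, 4, 23 and 8 peaks in Raji 1, Raji 2, Namalwa 1 and Namalwa 2, and 49 and 25 in L428-PAX5. The next were 135 to 140 Mb, with 1, 4, 5 and 0 peaks in the B-cell lines and 20 and 15 in L428-PAX5, and 130 to 135 Mb, with 5, 8, 6 and 3 against 30 and 16. The excess of these 3 bins was 0.544, 0.342 and 0.340 points.

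Elsewhere on chromosome 8 the bins above were single or in pairs, and some bins went the other way. From 105 to 115 Mb the B-cell lines had 0, 1, 1 and 0 peaks while L428-PAX5 had 16 and 9. The largest deficit was at 80 to 85 Mb, with 6, 16, 16 and 6 peaks in the B-cell lines (0.229 to 0.323% of a list) and 5 and 2 in L428-PAX5 (0.0806 and 0.0615%). The next, 25 to 30 Mb on the short arm, had 4, 7, 21 and 5 against 6 and 3. Both bins were below.

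On chromosome 9 the excess lay mainly toward the ends. Of 25 bins with a peak, 8 were above and 1 was below. The bins at 130 to 135 Mb and 135 to 140 Mb had the largest excess, 0.473 and 0.415 points. The first held 4, 11, 25 and 6 peaks in Raji 1, Raji 2, Namalwa 1 and Namalwa 2, and 40 and 27 in L428-PAX5. The second held 1, 1, 13 and 4 in the B-cell lines and 37 and 15 in L428-PAX5. In both bins Namalwa stood above Raji as a share of the list, and L428-PAX5 above both. Together they made up 49.2% of the net excess of the chromosome.

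The other end of chromosome 9, at 0 to 10 Mb, gave 32.3%. There the 4 lists of the B-cell lines held 7, 11, 30 and 7 peaks (0.222 to 0.481% of a list) and those of L428-PAX5 held 44 and 36 (0.710 and 1.11%). The bin at 0 to 5 Mb, the third by size of excess, had 3, 5, 16 and 4 peaks against 25 and 19. No such difference was seen at 35 to 40 Mb on the same arm, where 15, 24, 22 and 6 peaks stood against 27 and 12 and the excess was -0.0213 points. The bins with the largest deficits were 95 to 100 Mb, with 4, 8, 15 and 5 peaks against 6 and 4, and 110 to 115 Mb, with 5, 12, 11 and 5 against 5 and 6. Only the former was below, and in the latter the shares of both groups overlapped.

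On chromosome 17 most bins held more of the L428-PAX5 lists. Of 17 bins, 8 were above and 0 below, and 14 had a positive excess. Bins with a positive excess numbered 30 of 49 on chromosome 2, 19 of 27 on chromosome 12 and 21 of 35 on chromosome 6. A chromosome with a net excess leans to positive bins, so nothing is read from these numbers. The largest excesses on chromosome 17 were at 0 to 5 Mb (0.387 points), 5 to 10 Mb (0.353) and 75 to 80 Mb (0.349). The first held 8, 14, 12 and 4 peaks in Raji 1, Raji 2, Namalwa 1 and Namalwa 2 and 38 and 21 in L428-PAX5. The second held 2, 7, 2 and 0 against 21 and 16, and the last 9, 23, 21 and 7 against 49 and 21. The first 10 Mb made up 32.5% of the net excess, the bin at 75 to 80 Mb 15.3%, and 3 neighbouring bins at 40 to 55 Mb 19.8%. The most negative bins, 70 to 75 Mb and 35 to 40 Mb, had an excess of -0.0774 and -0.0550 points, and in both the L428-PAX5 shares overlapped with those of the B-cell lines.

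**Figure D2:**
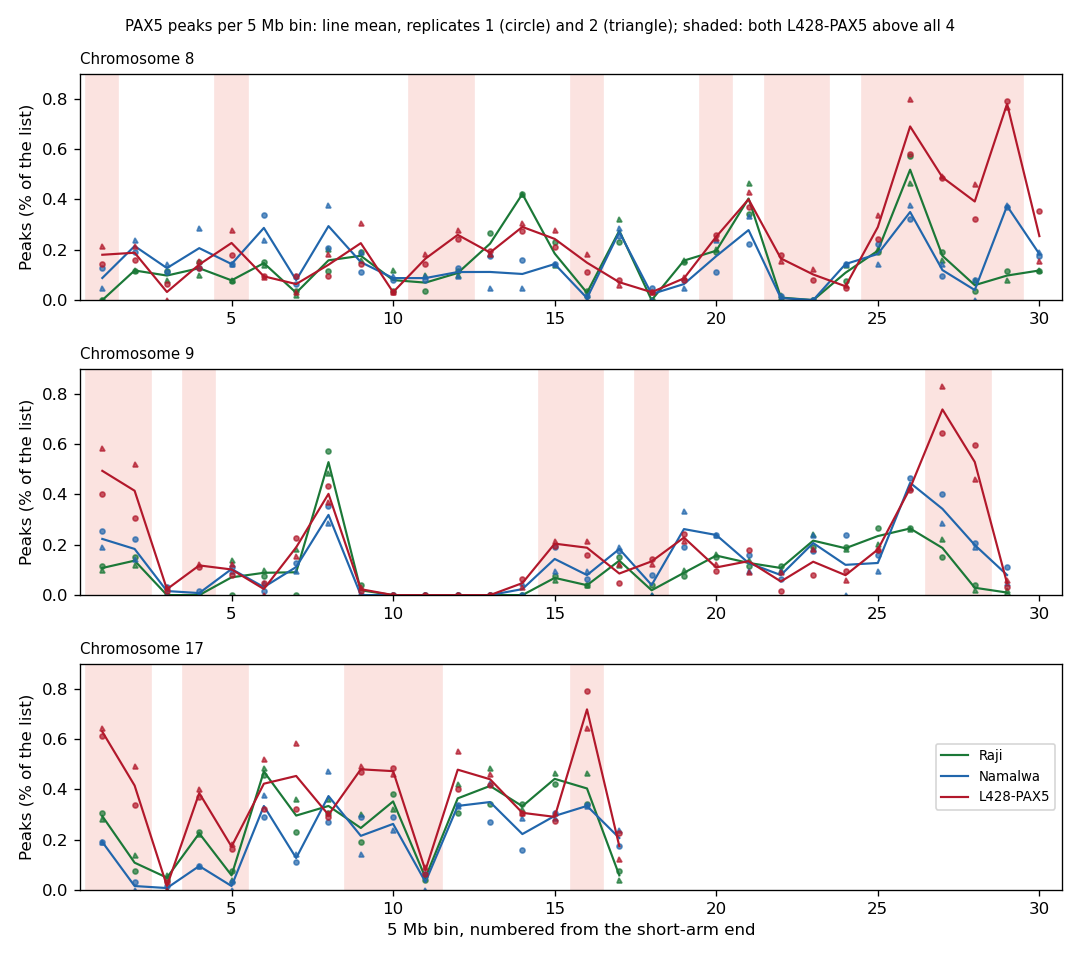
Share of each peak list (y axis, percent of the list) in bins of 5 Mb numbered from the short-arm end (x axis) on chromosomes 8, 9 and 17; lines join the mean of the 2 libraries of a line, circles are replicate 1, triangles replicate 2, and shaded bins are those where both L428-PAX5 shares exceed all 4 shares of the B-cell lines. The L428-PAX5 line rises above the others in the last part of the long arm of chromosome 8, at both ends of chromosome 9 and in the first 2 bins of chromosome 17, where its mean was 0.629 and 0.415% against 0.242 and 0.0624%.

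The same counts give the part of the excess that the largest bins held. The 3 largest bins summed to 41.8% of all positive excess on chromosome 8, 54.9% on chromosome 9 and 44.97% on chromosome 17. Bins needed to reach 50% of the net excess numbered 3, 3 and 4, and 3 on each of chromosomes 2, 12 and 6. By the other measure, on chromosomes 2, 12 and 6, the other ones with both L428-PAX5 shares on top, the 3 largest bins summed to 29.8, 38.3 and 38.1%, among 49, 27 and 35 bins. The number of bins on a chromosome sets part of such shares. Taking bins from the largest down also favours few bins, and negative bins lower the net excess, so nothing is read from these numbers. Positive excess on chromosome 8 came to 2.93 points and negative to -0.662 points. On chromosome 9 the sums were 2.22 and -0.412 points, and on chromosome 17 they were 2.42 and -0.145 points.

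**Figure D3:**
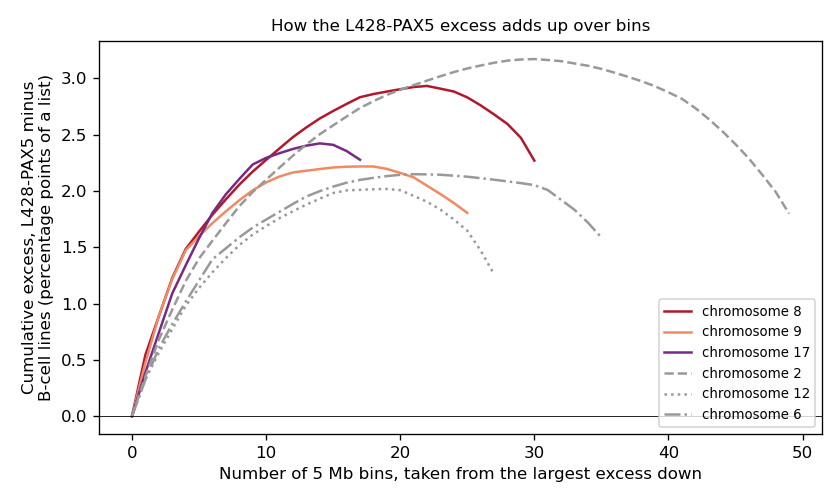
Running sum of the excess (y axis, mean L428-PAX5 share minus mean share of the B-cell lines, in percentage points of a list) over the 5 Mb bins of a chromosome taken from the largest excess down (x axis, number of bins), for chromosomes 8, 9 and 17 in colour and chromosomes 2, 12 and 6 in grey. Each curve climbs to its sum of positive excess, 2.93 points on chromosome 8, 2.22 on chromosome 9 and 2.42 on chromosome 17, and then falls to the net excess.

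Position relative to the chromosome ends was then described, with the long-arm end taken as the last base of any peak. Peaks within 10 Mb of an end made up 27.5 and 24.6% of the L428-PAX5 peaks of chromosome 8, against 8.85 and 7.76% for Raji and 19.9 and 18.8% for Namalwa. On chromosome 9 the shares were 40.7 and 45.1% in L428-PAX5, against 16.2 and 16.1% in Raji and 29.1 and 25.7% in Namalwa. On chromosome 17 they were 37.5 and 33.2%, against 27.5 and 26.7% and 31.9 and 29.3% in the same order. At this distance L428-PAX5 was above Namalwa and Namalwa above Raji in every library on each of the 3 chromosomes. The order depended on the distance, which was chosen after the data were seen. Within 5 Mb it held on chromosomes 9 and 17 but not on chromosome 8, where L428-PAX5 2 had 13.8% and Namalwa 1 had 15.4%. Within 20 Mb it held on chromosomes 8 and 9 but not on chromosome 17, where L428-PAX5 had 56.2 and 50.0%, against 52.3 and 50.8% in Raji and 48.04 and 52.0% in Namalwa. Over all other chromosomes the order within 10 Mb did not hold: 20.5 and 19.2% in L428-PAX5, against 17.3 and 16.3% in Raji and 18.9 and 23.0% in Namalwa.

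The outer 10 Mb held 49.4% of the excess of chromosome 8, 80.5% of that of chromosome 9 and 46.8% of that of chromosome 17. On chromosomes 2 and 6 the same figure was 1.72 and 6.84%, and on chromosome 12 the outer 10 Mb had an excess of -0.180 points. The outer 10 Mb is a larger part of a short chromosome. The last peak ended at 81.1 Mb on chromosome 17 and at 242.9 Mb on chromosome 2. An excess at an end was also seen elsewhere. On chromosome 11 the bin at 130 to 135 Mb had an excess of 0.547 points, and that at 0 to 5 Mb -0.162 points. Away from the ends, beyond 10 Mb, the lowest L428-PAX5 share of chromosome 8 was still above the highest share of a B-cell line (4.52 against 4.07% of the list), as was that of chromosome 17 (3.68 against 3.55%). On chromosome 9 it was not (2.87 against 2.88%). Beyond 5 Mb the L428-PAX5 shares were above on all 3 chromosomes. Beyond 20 Mb they were above on chromosome 17 (2.58 against 2.38%), but not on chromosome 8 (3.24 against 3.35%) or chromosome 9 (2.13 against 2.20%).

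**Figure D4:**
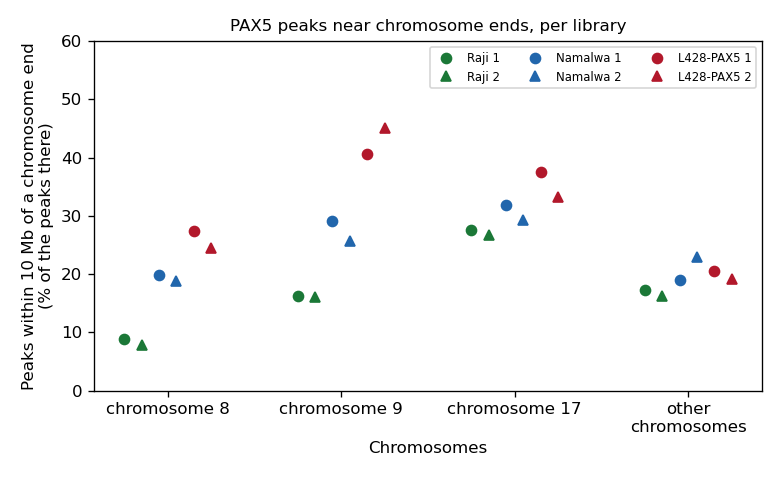
Percent of the peaks of a chromosome that lie within 10 Mb of either chromosome end (y axis), for chromosomes 8, 9 and 17 and for all other chromosomes together (x axis), with 1 point per library, circles for replicate 1 and triangles for replicate 2. L428-PAX5 is highest on the 3 chromosomes, up to 45.1% on chromosome 9, and lies at 20.5 and 19.2% on the others, within the 16.3 to 23.0% of the B-cell lines.

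The next question was whether the sites of these chromosomes recur between libraries of a line. Of the regions with a peak in any L428-PAX5 library, 477 of 1181 had one in both (40.4%, exact 95% interval 37.6 to 43.3%), against 35.2% (34.0 to 36.5%) on the other chromosomes. By chromosome the share was 42.7% on 8 (38.0 to 47.5%), 39.1% on 9 (33.8 to 44.6%) and 39.0% on 17 (34.3 to 43.9%). The intervals of chromosomes 9 and 17 held the 35.2% of the others, and that of chromosome 8 did not. Such a share also depends on how unequal in length the 2 lists are. L428-PAX5 had 1051 and 621 peaks on these chromosomes and 5140 and 2625 on the others, so nothing is read from the difference. For Raji it was 254 of 643 (39.5%, 35.7 to 43.4%) against 41.2% elsewhere, and for Namalwa 219 of 740 (29.6%, 26.3 to 33.0%) against 29.5%. For Raji and Namalwa the interval on these chromosomes held the value of the others. Over all lists 1119 of the 2054 regions (54.5%) were found in 1 library, against 55.2% elsewhere.

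Most regions found in both L428-PAX5 libraries, called reproducible, were absent from all lists of the B-cell lines. That held for 391 of 477 (82.0%, 78.2 to 85.3%), close to the 82.3% (80.6 to 84.0%) of the other chromosomes. It was 161 of 184 on chromosome 8 (87.5%, 81.8 to 91.9%), 106 of 131 on chromosome 9 (80.9%, 73.1 to 87.3%) and 124 of 162 on chromosome 17 (76.5%, 69.3 to 82.8%). On the short arm of chromosome 17 it was 39 of 44 (88.6%) and on its long arm 85 of 118 (72.0%). In the stretch of chromosome 8 from 120 to 145 Mb, 68 of 77 such regions had no B-cell-line peak. In the outer bins of chromosome 9 the numbers were 21 of 27 at 0 to 10 Mb and 30 of 37 at 130 to 140 Mb, and in the first 10 Mb of chromosome 17 they were 28 of 31. These stretches were picked by their excess over the B-cell lines, which favours regions without a B-cell-line peak. Nothing is read from their counts.

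The reverse view starts from the B-cell lines. On the 3 chromosomes 103 regions were reproducible in both Raji and Namalwa. Of these, 32 had a peak in an L428-PAX5 library (31.1%, 22.3 to 40.9%), against 27.4% (24.5 to 30.6%) of the 860 on other chromosomes. By chromosome the counts were 14 of 38 on 8, 7 of 24 on 9 and 11 of 41 on 17. On the short arm of chromosome 17, where the fold in peak share was highest, 0 of the 5 regions common to the B-cell lines had one (exact 95% interval up to 52.2%). Regions in all 6 libraries numbered 12 on chromosome 8, 4 on chromosome 9 and 8 on chromosome 17.

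Peaks of L428-PAX5 on the 3 chromosomes together ranked higher within their lists than those elsewhere, with little difference on chromosome 17. Peaks were given a percentile within their list by the p-value of the authors, where 100 is the strongest, and 50 is the middle of a list by construction. The median percentile on the 3 chromosomes was 53.8 and 54.2 in L428-PAX5, against 49.3 and 49.4 on the others. In the B-cell lines it was 51.4 and 50.4 in Raji and 49.04 and 52.2 in Namalwa. By chromosome the L428-PAX5 medians were 58.3 and 57.5 on 8, 51.5 and 54.6 on 9, and 50.4 and 49.7 on 17. Those of the B-cell lines ran from 50.2 to 61.6 on 8, 41.9 to 56.6 on 9 and 43.4 to 49.9 on 17. The medians of the groups thus overlapped on each chromosome. The best 10% of each list were found more often here in L428-PAX5: 149 of 1051 peaks (14.2%) and 89 of 621 peaks (14.3%) belonged to it, against 9.05 and 9.03% elsewhere. In the B-cell lines the share was 8.88 to 10.4% on these chromosomes and 9.94 to 10.2% on the others. On chromosome 8 alone the groups overlapped, at 11.4 to 17.7% in the B-cell lines against 14.8 and 16.4%. On chromosome 9 they did not, at 7.14 to 10.8% against 15.7 and 15.4%, nor on chromosome 17, at 4.0 to 6.25% against 12.3 and 11.2%. The other chromosomes were only pooled, and how many of them separate in this way was not counted, so nothing is read from the separation. In the stretch of chromosome 8 from 120 to 145 Mb it was 25 of 150 and 19 of 93 L428-PAX5 peaks, against 3 of 29 and 7 of 49 in Raji and 9 of 68 and 4 of 22 in Namalwa, and as shares the groups overlapped.

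Regions shared by L428-PAX5 and the B-cell lines ranked higher in the former about as often as in the latter. Over the 178 such regions the percentile in L428-PAX5 minus that in the B-cell lines had a median of 3.90, and 99 (55.6%, 48.0 to 63.0%) were higher in L428-PAX5. On the other chromosomes the median was -1.95 and 47.1% (43.9 to 50.4%) were higher. In the stretch of chromosome 8 from 120 to 145 Mb, 9 of 18 were higher. The peaks were of like width here and elsewhere, with a median of 535 and 533 bp in L428-PAX5 against 542 and 500 bp, and 418 to 541 bp in the B-cell lines.

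Within the L428-PAX5 lists, peaks with a close neighbour were more frequent on these chromosomes than on the others. Another peak of the same list within 50 kb was found for 55.9% (52.8 to 58.9%) of the L428-PAX5 1 peaks and 41.4% (37.5 to 45.4%) of the L428-PAX5 2 peaks, against 44.0 and 32.6% on other chromosomes. In the B-cell lines the shares were 35.5% in Raji 1, 48.7% in Raji 2, 52.6% in Namalwa 1 and 29.9% in Namalwa 2, against 32.8, 46.3, 49.5 and 30.4%. Between the lines the shares overlapped, with Raji 2 and Namalwa 1 above L428-PAX5 2. Spacing moves with the number of peaks on a chromosome, by which these chromosomes were chosen, so nothing is read from it.

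The densest windows of 1 Mb, by reproducible L428-PAX5 regions, were found by scanning each chromosome after the lists were seen. On chromosome 8, 15 regions lay at chr8:128674320-129642134, 13 of them without a B-cell-line peak, and the lists held 3, 5, 4 and 3 peaks of the B-cell lines and 24 and 16 of L428-PAX5 there. A second window on it, chr8:143808396-144718114, held 14 regions, with 1, 2, 9 and 6 peaks of the B-cell lines against 25 and 14. On chromosome 9, 16 regions lay at chr9:132419101-133299088, where neither B-cell line had a reproducible region and the peaks numbered 1, 4, 2 and 0 against 18 and 17. On its short arm, chr9:5388915-6102996 held 9 regions, with 2, 3, 4 and 1 peaks against 14 and 11. On chromosome 17, chr17:213218-1132432 held 9 regions, none of which had a B-cell-line peak, although the window held 3, 5, 5 and 3 peaks of the B-cell lines against 14 and 9. The other, chr17:56708631-57697433, held 8, of which 5 had none, with 3, 7, 5 and 2 peaks of the B-cell lines against 11 and 11.

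Single regions were named by rank within their class. Positions are on hg19 as the lists give them, and gene, exon and intron are not given because the annotation at hand is of another build. The −log10 p of the authors' caller grows with sequencing depth, so it ranks peaks only inside 1 list. Values of different lists are printed side by side, and their sizes are not compared. The top region of chromosome 8 with peaks in both L428-PAX5 libraries and none in the B-cell lines was chr8:127045420-127046563, with a −log10 p of 46.9 and 48.7. It was followed by chr8:129005389-129005855 (35.4 and 34.8) and chr8:129641285-129642134 (37.9 and 31.7). All 3 lie in the bin from 125 to 130 Mb. In all 6 libraries the top region was chr8:101965089-101965989, and the next was chr8:121821385-121822596, with 15.1, 16.6, 40.1 and 17.6 in the B-cell lines and 18.8 and 28.4 in L428-PAX5. Among those of all 4 B-cell-line libraries and neither of L428-PAX5, chr8:116464153-116464916 (21.6, 42.7, 34.1 and 18.4) and chr8:29086922-29087439 (18.0, 23.2, 83.1 and 21.3) came first.

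On chromosome 9 the top L428-PAX5 region without a B-cell-line peak was chr9:37953526-37954775, with 42.6 and 30.2, the strongest peak of the chromosome in both L428-PAX5 lists. It lies on the short arm, outside the bins of large excess. Next came chr9:125568971-125570130 (39.5 and 23.3) and chr9:133061761-133063110 (34.4 and 22.8), the latter within the densest window of the chromosome. Of the 4 regions in all 6 libraries, chr9:131418815-131419557 came first and chr9:37408846-37409779 second, the latter with 24.8, 37.9, 33.0 and 9.9 in the B-cell lines and 41.5 and 30.0 in L428-PAX5. The top regions of the B-cell lines alone were chr9:79086708-79087552 (17.2, 39.0, 46.9 and 30.1) and chr9:107685954-107686555 (21.2, 36.7, 37.7 and 17.4).

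On chromosome 17 the top L428-PAX5 region without a B-cell-line peak was chr17:25264224-25265580, with 79.7 and 70.1. It lies beside the longest stretch of the chromosome without a peak in any list, which spans 3.51 Mb, holds the boundary of the arms and ends at position 25263122. No filter for repeats or other artefact signal was applied here, and input was not analysed. Whether this region is a site of PAX5 was therefore not tested. The second, chr17:3698865-3699528, had 92.2 and 62.0 and is in the bin with the largest excess, and the third, chr17:31099448-31099901, had 45.4 and 34.3. The regions in all 6 libraries were led by chr17:76362261-76362927 with 14.2, 30.6, 19.9 and 19.1 in the B-cell lines and 15.6 and 9.1 in L428-PAX5, and by chr17:28256007-28257350. Of the B-cell lines alone, chr17:55628621-55629957 (14.2, 18.2, 40.7 and 16.6) and chr17:27064997-27066296 (10.5, 20.9, 19.0 and 12.6) came first.

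The bins of largest excess also held strong regions of their own. On chromosome 8 the strongest reproducible L428-PAX5 region was chr8:143080970-143081963 in the bin from 140 to 145 Mb (29.4 and 17.8), chr8:139632811-139634560 in that from 135 to 140 Mb (32.8 and 16.9) and chr8:131091827-131092860 in that from 130 to 135 Mb (34.3 and 17.9). On chromosome 9 it was chr9:138800266-138801080 (27.3 and 15.7) at 135 to 140 Mb and chr9:4421282-4422806 (26.0 and 17.2) at 0 to 5 Mb. On chromosome 17 it was chr17:9663370-9664310 (15.7 and 16.3) at 5 to 10 Mb and chr17:78579195-78579973 (35.3 and 29.5) at 75 to 80 Mb. None of these had a peak in a B-cell line. The excess bins held several regions each: 23 reproducible L428-PAX5 regions lay in the bin from 140 to 145 Mb of chromosome 8, 24 in that from 130 to 135 Mb of chromosome 9 and 19 in the first bin of chromosome 17.

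Across the 72 bins the profile of a library followed its line. Spearman's rho between the 2 libraries of a line was highest for L428-PAX5 at 0.914, followed by Raji at 0.895 and Namalwa at 0.814. Between Raji and Namalwa it ran from 0.663 to 0.699 over 4 pairs, and over the 8 pairs that set L428-PAX5 beside either of them from 0.524 to 0.617. Bins are not independent replicates, and all lists share the mappable sequence of the build, so these values describe the lists only. The chromosomes were chosen because L428-PAX5 differs from the B-cell lines there, which favours lower values for pairs with L428-PAX5. Bins of the other chromosomes were not correlated, so nothing is read from the lower values of these pairs.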

How the data were processed

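Peak lists of 6 PAX5 immunoprecipitated libraries were used, 2 per line; the 6 input libraries were not analysed here. Each deposited list gives, per peak, chromosome, start, end, name and a p-value from the authors' peak caller, one list per library. Per the submitters' processing notes, the build was hg19, and BWA 0.5.9-r16 as well as CASAVA 1.3 and 1.8 were among the tools. The peak names carry PeakRanger; for its settings and control, and for read depth, the sources used here give nothing. Whether starts count from 0 or 1 is not stated. Chromosomes, regions and lists of results were chosen with earlier results of these data known.

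Peaks were merged where they overlapped by 1 bp or touched. A peak belonged to the 5 Mb bin and arm of its centre, with arms split at 45 Mb (chromosome 8), 49 Mb (9) and 24 Mb (17), each inside the longest stretch without a peak. Bins and regions named were the 3 of largest excess and 2 of largest deficit, and the top 3 or 2 regions per class by mean within-list percentile. Shares have exact (Clopper-Pearson) 95% intervals. No test between lines was made, since the chromosomes were chosen by that contrast. The alternatives were the better 50% of each list, equal-length lists, libraries left out, other denominators, bins and overlaps; leaving out chromosome ends or sparse bins, the distances to ends, the 1 Mb windows and the percentile comparisons were added after seeing the data. Counting was tested on simulated lists. The scripts ran under Python 3.11.15 with matplotlib 3.10.9, scipy 1.17.1, pandas 2.3.3 and numpy 2.4.6. No hg19 sequence was used here, so no site sequence is printed.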

Additional observations from a re-analysis of the deposited data

How the results depend on the processing

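Of 213 values recomputed under 18 settings for 20 results, 6 changed sign, all of them the excess of the short arm of chromosome 8 (0.0334 points as reported). It was -0.377 in the better 50% of each list, -0.225 in equal-length lists and -0.0776 for libraries of replicate number 1 only (replicate block), and ran from -0.148 (without L428-PAX5 replicate 2) to 0.215 (without L428-PAX5 replicate 1). The replicate block turned no other sign and moved no other excess beyond the SD. A further 23 moved beyond the SD over libraries, the interval or 1.5 times the count. In the better 50% the excess of the long arm of chromosome 8 was 3.07 points, 2 bins gave 50% of the excess of chromosome 17, and regions numbered 1072, with 129, 109 and 267 reproducible in Raji, Namalwa and L428-PAX5. In equal-length lists of 2107 peaks the excess was 3.04 points on chromosome 8, 3.26 on its long arm and 1.46 on the short arm of chromosome 17, with 970 regions, of which 166 and 278 were reproducible in Raji and L428-PAX5. Fewer peaks enter there by construction. By covered bases the excess of chromosome 17 was 3.15 points. Without the outer 10 Mb of every chromosome, a choice made after seeing the data, that of chromosome 9 was 0.582. Bins above on chromosomes 8, 9 and 17 numbered 26, 16 and 20 at 2 Mb and 6, 4 and 4 at 10 Mb, with 5 bins for 50% of the excess of chromosome 8 at 2 Mb and 2 for chromosome 17 at 10 Mb. Leaving out each library, the excess ran from 1.81 to 2.72 on chromosome 8, 1.53 to 2.08 on chromosome 9 and 1.93 to 2.62 on chromosome 17. The share of L428-PAX5 regions with no B-cell-line peak ran from 82.2 to 85.5%, against 82.0% as reported. Leaving out a B-cell-line list takes away peaks that could match, so a rise is built in. Without 1 L428-PAX5 list the share (83.2 and 84.8%) covers all regions of the other list, reproducible or not. This range therefore does not measure stability. A list moves with the unknown depth of its library, and a site not in it can lie below its threshold.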

Other observations

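The strongest peak of a chromosome in a list was not always among the regions named by rank, and the following were chosen after their values were seen. The strongest peak of chromosome 8 in both L428-PAX5 lists was chr8:145786376-145788313, found in all 6 libraries, with a −log10 p of 131.5 and 114.0 in L428-PAX5. In the B-cell lines it had 7.53 and 15.4 in Raji and 48.1 and 9.85 in Namalwa. It stands outside the stretch from 120 to 145 Mb.

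The strongest peak of chromosome 8 in both Raji 1 and Namalwa 2, chr8:43092720-43093496, lies on the short arm close to the longest stretch of the chromosome without a peak. It had 95.7 in Namalwa 2, 46.1 in L428-PAX5 2 and 32.3 and 38.5 in the Raji libraries, and no peak in Namalwa 1 or L428-PAX5 1, the longest lists of their lines. With no filter for artefact signal and no input analysed, whether this region is a site of PAX5 was not tested.

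On chromosome 17 the strongest peak of both Raji lists was chr17:42424550-42426278, with 22.1 and 39.0, and it had 17.3 in Namalwa 1 and 6.43 in L428-PAX5 1. The strongest of Namalwa 1 there was chr17:67577429-67578230, with 54.6. This region had 16.1 in Namalwa 2 and 6.41 and 14.4 in Raji, and L428-PAX5 had no peak there.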
